A study of Mus musculus with 143 samples.

Results

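The messages described here are the 189 genes whose share of poly(A) RNA was most raised in ovulated control eggs relative to fully grown control oocytes of the mouse. They were chosen from measured values. Counts of each library were divided by the library's gene total and expressed per 1000000 counts (CPM), and the 3438 genes with a mean of at least 50 CPM in control metaphase II (MII) eggs were ranked by the ratio of mean MII to mean germinal vesicle (GV) control CPM, with 1 CPM added to both. Of the 200 highest, 11 with symbols of ribosomal, respiratory chain, proteasome, Sm-protein or Rab genes were set aside, which left 189 of 55573 gene IDs. At the limit of the ranking, Pou2f1 (ratio 2.106) and Oas1d (2.105) stood inside, and Pabpn1 (2.104) and C87499 (2.103) outside.

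Oocytes were taken from controls and from mutants in which Dis3 (Dis3 cKO), Exosc10 (Exosc10 cKO) or the pair (dcKO) was deleted conditionally. The mutant mice were made with CRISPR/Cas9, and the labels give neither the Cre line that deletes the genes nor the genotype of the controls. Single-oocyte poly(A) libraries covered GV oocytes, oocytes kept for 3 h in M2 medium (GV3h) and MII eggs, with 8 control libraries per stage and 15, 16 and 16 Dis3 cKO libraries. Single-oocyte libraries depleted of ribosomal RNA (RiboMinus, here called total RNA) came in groups of 8, with control and Dis3 cKO from adult GV oocytes and all 4 genotypes from postnatal day 20 (p20). GV and GV3h oocytes were taken from ovaries and MII eggs from oviducts after superovulation, so stage and source cannot be told apart. CUT&Tag for histone H3K27me3 and RNA polymerase II (Pol II), with 3 libraries per group, was done on pooled oocytes, where fewer cells and less signal per cell cannot be told apart.

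A fully grown oocyte is transcriptionally silent and matures on stored messages. When meiosis resumes, most maternal messages lose their poly(A) tails and are degraded, while a dormant subset, stored with short tails, gains long tails and is translated. Oligo-dT capture, used for the poly(A) libraries, draws on the tail, so a message can rise in such data by gaining a tail or by outlasting the others. The RNA exosome trims and degrades RNA in the nucleus, and DIS3 and EXOSC10 are its catalytic subunits there.

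Among the members are 6 genes of the Tcl1 cluster on chromosome 12, encoding TCL1-family proteins, of which TCL1 is known as a coactivator of the kinase AKT. They were singled out after their values were seen. RefSeq starts and ends (GRCm38.p6) place them between position 105147019 (start of Tcl1b2) and 105222737 (end of Tcl1). The promoters of 4 of them are shown because these neighbours rose together. Close copies may share reads, but promoter sequence lies mostly outside the message and does not show whether they do. The messages themselves were not aligned with each other. Each window runs from 250 bases before to 50 after the start site, written along the gene, and capitals mark CANNTG, the E-box letters bound by basic helix-loop-helix factors, searched on both strands and the same on each.

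Tcl1b2 promoter (chr12:105146769-105147068, plus strand): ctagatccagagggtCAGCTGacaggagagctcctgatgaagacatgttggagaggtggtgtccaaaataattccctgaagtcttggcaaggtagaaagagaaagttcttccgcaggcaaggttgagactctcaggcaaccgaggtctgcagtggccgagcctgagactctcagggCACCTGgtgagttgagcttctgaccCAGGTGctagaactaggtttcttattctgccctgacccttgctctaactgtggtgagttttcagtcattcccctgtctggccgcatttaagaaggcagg

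Tcl1b4 promoter (chr12:105202145-105202444, plus strand): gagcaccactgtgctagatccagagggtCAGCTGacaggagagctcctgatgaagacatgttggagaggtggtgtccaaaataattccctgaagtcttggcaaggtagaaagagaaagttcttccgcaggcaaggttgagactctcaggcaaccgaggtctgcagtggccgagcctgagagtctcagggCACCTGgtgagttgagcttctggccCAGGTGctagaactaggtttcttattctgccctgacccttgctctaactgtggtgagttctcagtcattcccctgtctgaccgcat

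Tcl1b1 promoter (chr12:105159454-105159753, plus strand): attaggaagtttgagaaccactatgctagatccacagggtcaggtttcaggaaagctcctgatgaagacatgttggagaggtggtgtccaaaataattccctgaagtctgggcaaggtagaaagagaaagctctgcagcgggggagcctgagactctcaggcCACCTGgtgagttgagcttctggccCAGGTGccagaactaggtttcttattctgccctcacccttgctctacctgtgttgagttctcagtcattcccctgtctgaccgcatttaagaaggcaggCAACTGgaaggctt

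Tcl1 promoter (chr12:105222688-105222987, minus strand): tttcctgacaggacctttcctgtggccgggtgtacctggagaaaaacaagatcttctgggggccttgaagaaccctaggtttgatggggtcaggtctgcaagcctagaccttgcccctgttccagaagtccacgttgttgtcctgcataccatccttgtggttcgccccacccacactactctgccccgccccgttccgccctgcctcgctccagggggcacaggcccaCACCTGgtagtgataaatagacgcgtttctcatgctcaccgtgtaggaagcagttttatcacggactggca

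The Tcl1b2 and Tcl1b4 windows were identical at 90.4% of aligned positions and hold 3 E-boxes each, whereas Tcl1 was identical to the other windows at 43% to 47.7% and holds 1. CANNTG occurred in 108 of the 151 member windows in the RefSeq promoter table (71.5%), in 66% of those of genes at the 50 CPM floor and in 75% of all 27025 windows, so the share in members lay between these.

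Sequencing depth was 4843964 to 15412200 gene counts per poly(A) library and 8492102 to 35429028 per total RNA library. Dis3 stood at 13.4 ± 2.95 CPM in GV controls (SD, n = 8) and 3.15 ± 1.64 in GV Dis3 cKO (n = 15), and Exosc10 at 113 and 3.11 CPM in p20 control and Exosc10 cKO. MII Dis3 cKO egg 15 (14.4 gene counts per ERCC count, the group's median being 53.3) and GV Dis3 cKO oocyte 8 stood apart from their groups, and control GV library 1 was the highest of its group in 70 of the 189 members. Cumulus and granulosa markers summed to 99.1 to 249 CPM in GV controls, 85.1 to 367 in GV Dis3 cKO, 89.7 to 260 in MII controls and 57.7 to 98.5 in MII Dis3 cKO. Of those that define the cells, Ptx3 was at 0 in all 6 poly(A) groups, whereas Cyp19a1 reached 71.6 CPM, Star 37.8 and Cyp11a1 26.2 in MII controls, and Cyp11a1 reached 48.1 in GV Dis3 cKO. Oviduct markers summed to 175 to 369 CPM in GV and 27.9 to 467 CPM in MII Dis3 cKO libraries, where the oviduct gene Ovgp1 reached at most 7.52 CPM. The part of such cells in the results was not tested. Oocyte identity genes summed to 12625 to 39005 CPM in the same eggs. For the poly(A) libraries the labels name no animals, so p-values measure the spread between oocytes, which may share a mother.

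In control oocytes the 189 messages together made up 3.75% ± 0.473 of gene counts at GV (SD, n = 8), 4.14% ± 0.235 at GV3h (n = 8) and 9.36% ± 0.275 at MII (n = 8). The rule used the first and last of these groups, so the rise from GV to MII is a description of the choice. Synthetic ERCC RNAs, added to each lysate, give a scale that does not depend on the total. Member counts per ERCC count were 5.12 ± 0.635 at GV, 6.62 ± 1.01 at GV3h and 4.30 ± 0.314 at MII, while gene counts per ERCC count as a whole went from 108 to 162 at GV to 42.2 to 52.2 at MII. With counts scaled to ERCC totals, the median log2 difference between control MII and GV was -0.34 over the members and -2.12 over all 17389 genes tested, an order that the choice of the members fixes. Total RNA at MII was not analysed here, so a change of tail and a change of amount cannot be told apart.

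**Figure D1:**
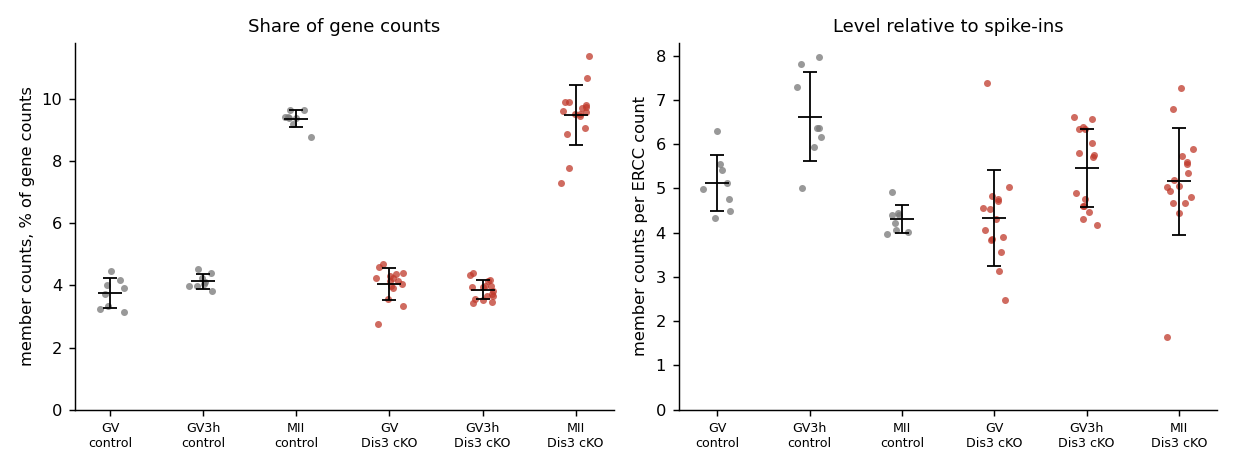
The left panel plots the 189 messages as a percentage of gene counts and the right panel their counts per ERCC count, for GV, GV3h and MII oocytes of control and Dis3 cKO females. Points are single-oocyte libraries and bars are means ± SD. The share lies at 3.75% to 4.14% in the controls at GV and GV3h and at 9.36% in control MII eggs, while counts per ERCC count stay between means of 4.30 and 6.62.

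Dis3 cKO oocytes, none of which entered the rule, were used to test the same change. The share of the members was 4.05% ± 0.506 at GV (n = 15), 3.87% ± 0.303 at GV3h (n = 16) and 9.49% ± 0.965 at MII (n = 16). From GV to MII, 184 of the 189 rose and 1 fell (edgeR quasi-likelihood test, adjusted p under 0.05), where 24.8% of all tested genes rose and 38.5% fell. Genes at the 50 CPM floor, which every member had to reach, rose more often and fell less often than all genes. Their shares are given below beside the gene lists. The median log2 fold change was 1.44 over the members, 0.46 over the genes at the 50 CPM floor and -0.26 over all genes. In 91 members every MII library lay above every GV library, in CPM, which held for 1.96% of all genes. The one that fell was St3gal5, and Gm7145, Pigp, Tox3 and Pxdn did not pass the test. With counts summed over runs of 4 consecutive title numbers, an alternative added once the values were known because some members run high or low in such fours, 178 members rose and 0 fell, against 18.3% and 27.1% of all genes, and 182 had an unadjusted p under 0.05.

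Scaled to ERCC totals, 69 members rose from GV to MII in Dis3 cKO and 20 fell, where 1.31% of all genes rose and 82.3% fell, and the median was 0.15 over the members and -1.50 over all genes. The shares of the genes at the floor, given below with the dormant messages, were somewhat higher for rises and lower for falls. A rise on this scale is a rise in counts captured per unit of added RNA. The 69 included Manba, Cdc5l, Cyth1, all 6 Tcl1-cluster genes, Omt2a, Omt2b, Cnot8, Tex19.1, Anapc10, Aurkc, Cks1b, Btg4 and Magoh. Among the 20 that fell, chosen after their values were seen, were Ezh2, the methyltransferase of Polycomb repressive complex 2, the cohesin subunit Stag1 and St3gal5. Leaving out egg 15, chosen after seeing the data, gave 86 and 19, against 1.76% and 81% of all genes (4.6% and 75.9% of the genes at the floor). Size factors from the single ERCC RNAs, likewise added, gave 129 and 6, against 4.11% and 68% of all genes (11.5% and 52% of the genes at the floor).

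In CPM, the members differed more between GV3h and MII than between GV and GV3h, stages that come from separate oocytes, the MII eggs having been taken from oviducts and not from the 3 h culture. On the log2(CPM + 1) scale, the median member differed by 0.13 between control GV and GV3h and by 1.14 between GV3h and MII. In Dis3 cKO the medians were -0.06 and 1.10. In ERCC units the median member of Dis3 cKO changed by 0.32 and then by -0.25. At GV3h, 60 of 189 members in controls and 104 in Dis3 cKO had a lower mean CPM than at GV. These control values share libraries with the rule.

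Tested in Dis3 cKO, 18 members rose and 50 fell from GV to GV3h, where 7.42% of all genes rose and 9.88% fell. The members' shares, 9.52% and 26.5%, lay near the 8.03% and 23.3% of the genes at the floor. All 18 and all 50 then rose from GV3h to MII, in a comparison that shares the GV3h libraries. Scaled to ERCC totals, which moved the median of all genes from 0.00 to 0.47, 89 members rose and 0 fell, against 36.1% and 0.949% of all genes (103 members with an unadjusted p under 0.05). That was 47.1% of the members and 47% of the genes at the floor, so the direction at GV3h depended on the scaling. With counts summed over 4 title numbers, 6 rose and 10 fell (1.29% and 0.652% of all genes). From GV3h to MII, 184 rose and only St3gal5 fell (27% and 41.2% of all genes), and 93 members did not overlap between the stages, all higher at MII (2.31% of all genes). In ERCC units this second step turned round for many, with 31 higher and 79 lower, while 0.61% of all genes rose and 90.8% fell.

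**Figure D2:**
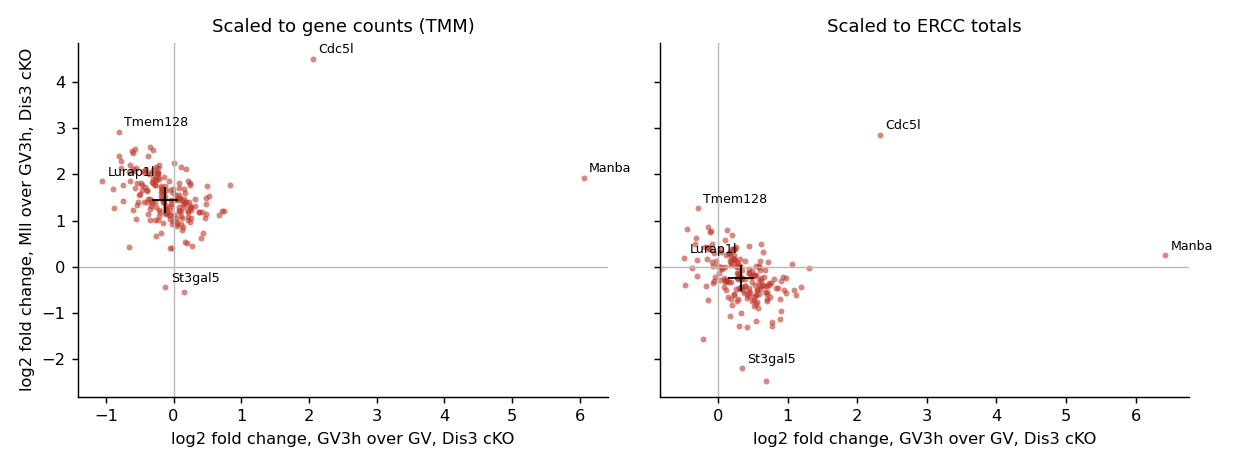
Each point is 1 of the 189 messages in Dis3 cKO oocytes, with the log2 fold change from GV to GV3h on the x axis and from GV3h to MII on the y axis. The left panel uses TMM scaling and the right panel ERCC totals, and the cloud, centred near -0.12 and 1.45 on the left, lies near 0.32 and -0.25 on the right.

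Messages that act on other messages come first. Btg4 (ENSMUSG00000032056, chr9:51102147-51119924, with gene positions here and below from RefSeq on GRCm38.p6) encodes the adaptor that brings the CCR4-NOT deadenylase to maternal messages in maturing oocytes. It was at a median of 1805 CPM (1374 to 2183), the bracket giving the lowest and highest library, in Dis3 cKO GV oocytes, a median of 1714 CPM (1448 to 2152) at GV3h and a median of 4629 CPM (3335 to 5472) at MII. The GV and MII libraries did not overlap, and the log2 fold change was 1.62 (SE 0.081, adjusted p = 5.6e-29), with 0.34 in ERCC units. The step to GV3h was -0.13 (SE 0.078, adjusted p = 0.266) and did not pass the test. Cnot8, a catalytic subunit of CCR4-NOT, rose from a median of 197 CPM (143 to 253) to a median of 613 CPM (388 to 732), by 1.85 (SE 0.089, adjusted p = 6.6e-30). Its stages did not overlap, and the ERCC value was 0.59. Both belong to a list of 40 genes of deadenylation, decapping and uridylation, in which 16 rose and 12 fell from GV to MII in Dis3 cKO (median 0.11). Over all genes 24.8% rose and 38.5% fell, and over the genes at the floor 64.8% and 15.6%.

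Of the 20 genes listed as dormant maternal messages, 17 rose and 1 fell between Dis3 cKO GV and MII (median 1.00), of which Btg4, Dazl, Orc6 and Tex19.1 are members. Over all genes 24.8% rose and 38.5% fell, and over the genes at the floor 64.8% and 15.6%. In ERCC units 3 of the 20 rose and 7 fell, where 1.31% of all genes rose and 82.3% fell (3.05% and 77.3% of the genes at the floor). Dazl, an RNA-binding protein that activates translation of stored messages, rose from a median of 1145 CPM (783 to 1799.9) to a median of 2079 CPM (1306 to 2695), a log2 change of 1.01 (SE 0.11, adjusted p = 2.3e-13), and in ERCC units the difference was -0.21 (adjusted p = 0.172). Orc6, a subunit of the origin recognition complex, first fell by 0.54 (SE 0.13, adjusted p = 0.00223) at GV3h, -0.09 in ERCC units, a call lost with sums over 4 title numbers (adjusted p = 0.0916). It ended 1.27 (SE 0.13, adjusted p = 1.7e-13) above GV, at a median of 765 CPM (439.8 to 1027) against a median of 382 CPM (156 to 475), a rise that did not pass in ERCC units. Tex19.1, a germ cell protein that restrains retrotransposons, went the other way at GV3h, with 0.75 (SE 0.17, adjusted p = 0.00124) and an adjusted p of 0.180 with those sums, and reached a median of 209 CPM (149 to 289) at MII against a median of 64.3 CPM (12.7 to 148) at GV (1.95, SE 0.18, adjusted p = 5.1e-16).

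Of the cell cycle members, Mad2l1, Anapc10 and Cks2 fell at GV3h before they rose, with -0.42, -0.33 and -0.45, which in ERCC units became 0.06, 0.15 and -0.06. With sums over 4 title numbers the fall of Mad2l1 did not pass (adjusted p = 0.142). Aurkc and Cks1b, at -0.05 and -0.23, did not pass the test there. Mad2l1, the spindle checkpoint protein MAD2, was at a median of 248 CPM (182 to 287) in GV, a median of 194 CPM (163 to 221) in GV3h and a median of 454 CPM (298 to 718) in MII libraries of Dis3 cKO. Its GV and GV3h ranges overlapped, with a change of -0.42 (SE 0.09, adjusted p = 5.2e-04), and its GV and MII ranges did not overlap, with 1.30 (SE 0.091, adjusted p = 4.0e-21). Aurkc, the Aurora kinase of germ cells, rose from a median of 82.0 CPM (47.7 to 97.1) to a median of 208 CPM (148 to 242), a log2 change of 1.62 (SE 0.10, adjusted p = 3.8e-25) and Anapc10, a subunit of the anaphase-promoting complex, from a median of 58.2 CPM (28.8 to 64.6) to a median of 142 CPM (98.3 to 240.2), a log2 change of 1.70 (SE 0.11, adjusted p = 2.2e-23). In neither did the ranges overlap, and in ERCC units the rises were 0.41 and 0.42. Cks1b and Cks2, small proteins that bind cyclin-dependent kinases and have related copies, rose by 1.71 and 1.62. In ERCC units the rise of Cks1b from GV to MII passed the test, and those of Cks2 and Mad2l1 did not. Among 43 spindle and kinetochore genes 21 rose and 13 fell (median 0.28), and among 43 genes of the anaphase-promoting complex and ubiquitin conjugation 15 rose and 16 fell (median -0.02), beside 24.8% and 38.5% of all genes and 64.8% and 15.6% of those at the floor. Magoh, a core protein of the exon junction complex, fell by 0.64 (SE 0.10, adjusted p = 1.3e-05) at GV3h, -0.15 in ERCC units, and then stood 1.56 above GV at MII (adjusted p = 1.3e-21). Its list of 34 LSM and small splicing factors was split at 15 higher and 14 lower, beside the same shares.

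Omt2b and Oosp1, genes of the oocyte, fell in CPM at GV3h and rose by MII. Omt2b (ENSMUSG00000038750, chr9:78328030-78329620), an oocyte maturation gene with the close copy Omt2a, was at a median of 764 CPM (423 to 1012) in GV, a median of 572 CPM (483 to 728) in GV3h and a median of 2723 CPM (1726 to 6058) in MII libraries of Dis3 cKO. It fell by 0.35 (SE 0.11, adjusted p = 0.0188) at GV3h, 0.12 in ERCC units and not called with sums over 4 title numbers (adjusted p = 0.186), and then rose by 2.59 (SE 0.11, adjusted p = 6.6e-32), with no overlap between GV3h and MII. Omt2a changed from GV to MII by 2.22 (SE 0.11, adjusted p = 3.8e-28), close to the 2.24 of Omt2b, and how reads were divided between the copies is not known. Oosp1, an oocyte-secreted protein, fell by 0.64 (SE 0.11, adjusted p = 2.5e-05) at GV3h, -0.16 in ERCC units, and rose by 1.21 (SE 0.11, adjusted p = 8.4e-16) over the whole interval, where the ERCC value was 0.00. Of 19 oocyte identity genes, 8 rose and 9 fell (median -0.29), beside 24.8% and 38.5% of all genes. The genes at the floor, by the shares given above, rose more often and fell less often than all genes.

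In the Tcl1 cluster all 6 members rose from GV to MII in Dis3 cKO. Tcl1 rose early, from a median of 1232 CPM (809 to 2023) at GV to a median of 1961 CPM (1243 to 2395) at GV3h (0.52, SE 0.10, adjusted p = 1.9e-04) and a median of 4331 CPM (3117 to 7740.5) at MII (2.05, SE 0.11, adjusted p = 5.1e-28). Tcl1b1 was at a median of 859.7 CPM (243 to 1112) and a median of 3102 CPM (2332 to 7693) and rose by 2.31 (SE 0.14, adjusted p = 9.5e-24), and Tcl1b3 rose by 2.25 (SE 0.12, adjusted p = 1.2e-26). For Tcl1b2, Tcl1b4 and Tcl1b5 the log2 changes were 1.98, 2.0 and 2.07. In ERCC units the 6 lay between 0.60 (Tcl1b4) and 0.97 (Tcl1b1), so their captured amount rose as well as their share. In total RNA of p20 dcKO oocytes the changes of Tcl1b5 and Tcl1b3 were -1.50 (SE 0.28, adjusted p = 2.4e-05) and -0.42 (SE 0.15, adjusted p = 0.0212), of which the first held per title tag (adjusted p = 0.00602) and the second did not (0.0501). The other 4 did not pass the test there.

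**Figure D3:**
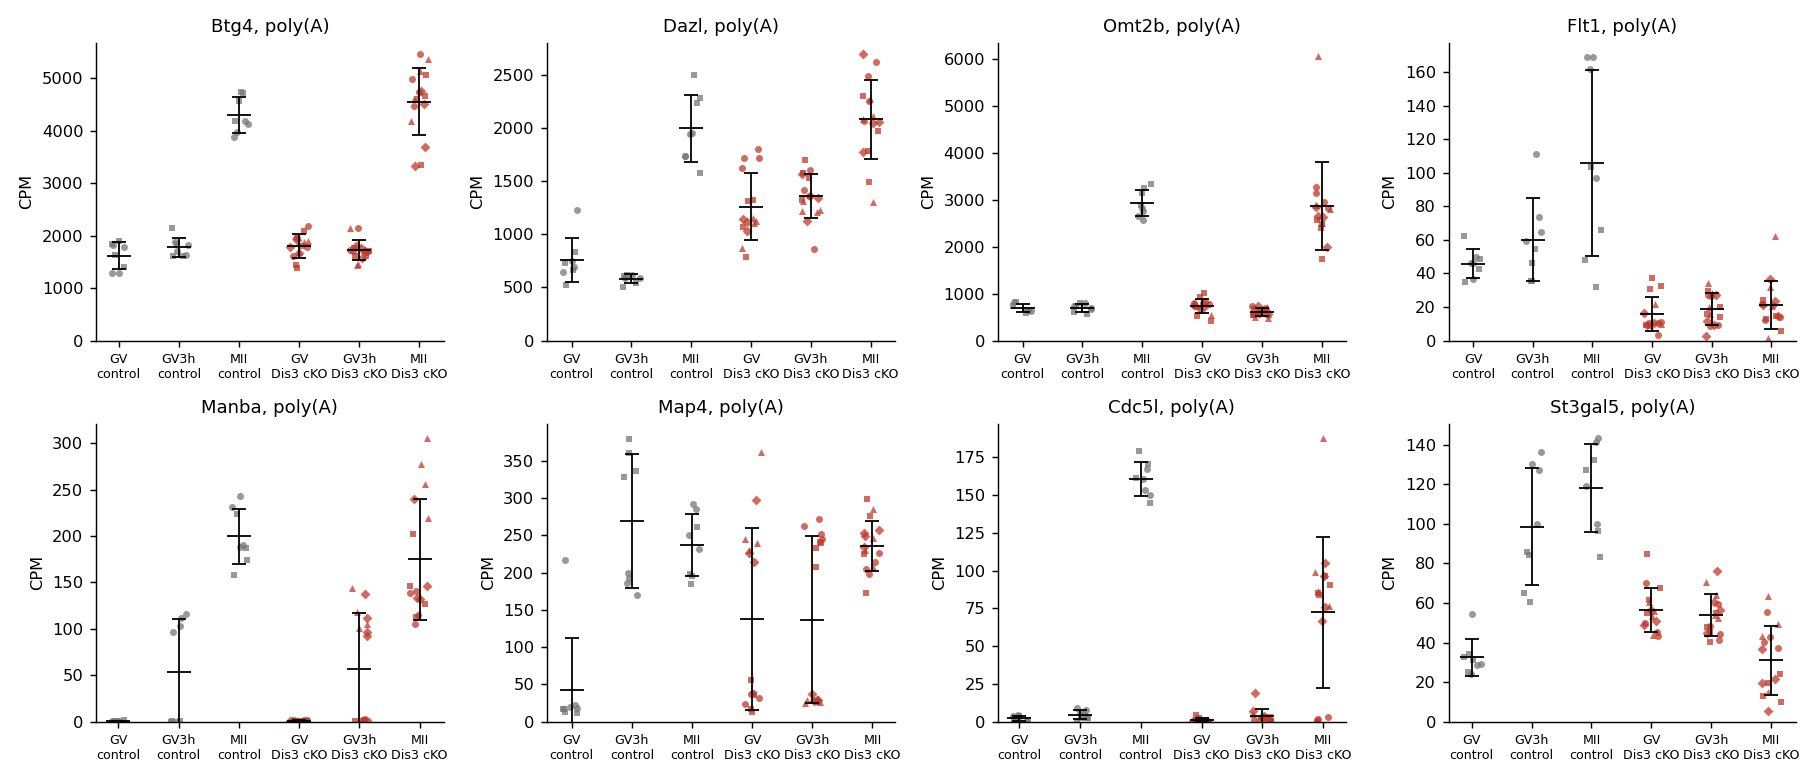
CPM of 8 members in GV, GV3h and MII oocytes, with control libraries in grey and Dis3 cKO libraries in red, bars for mean ± SD and 1 marker shape for each run of 4 title numbers. Btg4 and Omt2b rise at MII in every run, whereas Manba, Map4 and Cdc5l are high in some runs and near 0 or low in others.

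The highest-ranked members behaved less evenly. Manba (ENSMUSG00000028164, chr3:135485611-135571404), lysosomal beta-mannosidase, was at 0 to 1.41 CPM in GV controls and 0 to 2.19 CPM in GV Dis3 cKO, and at a median of 189 CPM (159 to 243) and a median of 144 CPM (105 to 305) in the MII groups. At GV3h it split by title number. Controls numbered 1 to 4 held 96.3 to 116 CPM and those numbered 5 to 8 held 0 to 1.05, while Dis3 cKO numbers 1 to 8 held 0.316 to 2.50 and numbers 9 to 16 held 92.7 to 144. Within each of these runs the libraries lay together, and between them nothing lay in the gap. The Dis3 cKO changes were 6.06 (SE 0.78, adjusted p = 9.3e-08) from GV to GV3h and 7.98 (SE 0.82, adjusted p = 8.8e-14) from GV to MII, and with counts summed over 4 title numbers the first was 6.14 (adjusted p = 4.14e-02). These folds rest on GV levels of at most 2.19 CPM. Total RNA was split in the same way, with 25.5 to 31.1 CPM in adult control libraries of 1 title tag and 0.197 to 1.45 in those of the other, and 0.163 to 1.06 against 29.9 to 42.3 in adult Dis3 cKO. The labels do not say what a run of 4 numbers or a title tag marks.

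Map4 (ENSMUSG00000032479, chr9:109929841-110083954), a microtubule-associated protein, showed the same kind of division. GV control 1 held 217 CPM and the other 7 controls 11.8 to 22.7. GV Dis3 cKO numbers 1 to 8 held 13.7 to 55.7 CPM and numbers 10 to 16 held 214 to 362, whereas at GV3h numbers 1 to 8 held 207 to 272 and numbers 9 to 16 held 25.4 to 36.9. At MII all libraries were high, at 185 to 292 CPM and 173 to 299 CPM. Its place in the ranking rested on the low values of GV controls numbered 2 to 8. GV3h controls, which the rule did not use, already held 171 to 379 CPM. With sums over 4 numbers, neither its rise of 1.04 from GV to MII in Dis3 cKO nor its difference of -1.14 between Dis3 cKO and control at GV3h passed (adjusted p = 0.276 and 0.356). Cdc5l, a spliceosome component, was at 0.547 to 3.23 CPM in MII Dis3 cKO eggs 1 to 4 and at 66.4 to 188 in eggs 5 to 16, against 144 to 179 CPM in MII controls. Its change from GV to MII was still 6.56 (SE 0.59, adjusted p = 2.9e-16) with all eggs, and 6.66 (adjusted p = 1.75e-05) with sums over 4 numbers, but its rise of 2.06 at GV3h did not pass with those sums (adjusted p = 0.197).

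A member was counted as split when the lowest library of 1 run held at least 20 CPM and at least 4 times the highest library of another. That held for Manba in 4 of 12 groups, for Map4 and Mtfr2 in 2 each and for Cdc5l, Pxdn and Tox3 in 1 each. At GV3h it was 3 of 189 members in Dis3 cKO (1.59%), against 0.145% of the genes at the 50 CPM floor, and 2 in controls (1.06% against 0.0873%). In GV controls, MII controls and the p20 groups it was 0 members. Mtfr2, a regulator of mitochondrial fission, was at 345 to 369 CPM in GV3h controls 1 to 4 and 42.4 to 53.1 in controls 5 to 8. This definition was made after seeing the data, and the rule itself favours messages that were low in most GV controls.

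Of the other 10 highest-ranked members, Cyth1, an exchange factor for ARF GTPases, rose stepwise in Dis3 cKO from a median of 8.90 CPM (2.51 to 15.4) to a median of 18.4 CPM (10.6 to 29.0) and a median of 41.6 CPM (17.9 to 106). The whole change was 2.61 (SE 0.21, adjusted p = 2.7e-18), or 1.28 in ERCC units, while its first step of 0.83 did not pass with sums over 4 numbers (adjusted p = 0.170). Msrb3, a methionine sulfoxide reductase, rose by 1.29 (SE 0.20, adjusted p = 6.2e-08) and was -0.06 in ERCC units. Ggct, gamma-glutamylcyclotransferase, rose by 0.79 (SE 0.18, adjusted p = 1.3e-04) but was among those lower in ERCC units, at -0.62. Homer2, a scaffold protein, fell by 0.89 (SE 0.31, adjusted p = 0.0383) at GV3h, a call lost without GV Dis3 cKO oocyte 8 (-0.85) and with sums over 4 numbers (adjusted p = 0.430). Tmem128 had the second largest rise from GV3h to MII, from a median of 47.9 CPM (27.8 to 83.5) to a median of 311 CPM (127 to 429), a log2 change of 2.92 (SE 0.21, adjusted p = 5.5e-21). Lurap1l and Gm7145 were also among the 3 largest called falls at GV3h, with -1.05 (SE 0.20, adjusted p = 1.3e-04) and -0.87 (SE 0.22, adjusted p = 0.00338), and neither passed with sums over 4 numbers (adjusted p = 8.01e-02 and 0.135).

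Total RNA of GV oocytes shows what these messages were before maturation. In adult Dis3 cKO, 123 of the 188 members in the total RNA files held a mean of at least 50 CPM (65.4%), a smaller share than the 84.7% of the genes at the floor. Their poly(A) share set against their total RNA share at GV, as log2 of the ratio of mean CPM with 1 added to each mean, had a median of 0.43 in Dis3 cKO, with 130 of 188 (69.1%) above 0, and of -0.10 in all genes at the 50 CPM floor (44.9% above 0). In controls, whose GV libraries the rule used, the medians were 0.44 and -0.07. The values differ between kits in priming and in how length counts. The genes of the members span fewer bases in RefSeq, introns included, with a median of 22378.5 against 37728 for genes at the floor. The length of the messages themselves was not computed. No comparison matched for length was made. The lowest ratios in Dis3 cKO were those of Manba (-3.33), Rnf213 (-1.87) and Slain1 (-1.83), and the highest those of Gm20521 (5.60), 1500002C15Rik (4.27) and Rhoq (3.62), all chosen after their values were seen apart from Manba, Gm20521 and 1500002C15Rik. The ratio of Manba rests on 1 title tag, since its total RNA in adult Dis3 cKO averaged 34.5 CPM in 4 libraries of that tag and 0.61 CPM in the 4 of the other. Gm20521 held 0 CPM in adult total RNA and 31.3 to 60.2 CPM in poly(A) GV Dis3 cKO, and 1500002C15Rik held 0.478 to 1.41 CPM in adult control total RNA. AU022751, Atxn2l and Btg4, named for their total RNA level in CPM, which is not divided by length, held 1769.7 to 2694 CPM, 1353 to 1624 CPM and 1216 to 1625 CPM in adult controls. Of the 182 members in the RefSeq gene table, 179 were protein coding and 78 overlap another annotated gene, for which shared reads are possible since the use of strand is not known.

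Between control adult GV and p20 oocytes, 69 members were higher in adults and 12 lower (8.69% and 10.4% of all genes), with a median log2 fold change of 0.24 against 0.00. In ERCC units 2 were higher and 181 lower (0.417% and 85.7% of all genes, whose median moved by -1.69), and the ERCC amount added to these libraries is not given in the sources used here. With counts summed per title tag, of which each group has 2 with 4 libraries each, 4 were higher and 2 lower (0.434% and 0.605% of all genes). Age and library set cannot be told apart. Pxdn, peroxidasin, which crosslinks collagen IV, showed the clearest difference, with 0 to 0.508 CPM in p20 and a median of 129.6 CPM (104 to 153) in adult controls. Lurap1l and Msrb3 were lower in adults, with log2 changes of -1.42 and -1.16 (adjusted p = 2.1e-05 and 0.00307, and 5.06e-03 and 4.44e-02 per title tag). Manba was 5.51 (SE 1.05, adjusted p = 1.7e-04) higher, but not per title tag (adjusted p = 0.177).

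The effect of the Dis3 deletion was tested in poly(A) RNA at GV3h, which the rule did not use. Here 15 members were higher and 59 lower in Dis3 cKO (22.9% and 15.7% of all genes, and 292 and 1282 of the 3438 genes at the floor), with a median of -0.16 against 0.07 over all genes. In ERCC units 10 were higher and 46 lower (17.5% and 10.6% of all genes), and with counts summed over 4 title numbers 7 and 43 (11.7% and 8.27% of all genes). Every Dis3 cKO library lay above every control in 4 members, Pogk, Dazl, Mob4 and Stag1 (7.31% of all genes), and below every control in 9 (2.02%).

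Dazl was at a median of 595 CPM (499.5 to 619) in GV3h controls and a median of 1351 CPM (863 to 1699) in Dis3 cKO. Its groups did not overlap, and the change was 1.08 (SE 0.13, adjusted p = 6.9e-10), or 1.02 (adjusted p = 8.09e-04) with sums over 4 numbers. Stag1, a cohesin subunit, was at a median of 34.2 CPM (30.1 to 46.6) and a median of 69.7 CPM (54.5 to 84.8), a rise of 0.80 (SE 0.14, adjusted p = 4.0e-06), and 0.75 (adjusted p = 4.45e-03) with those sums. Pigp, of the enzyme complex that starts GPI anchor synthesis, rose by 1.75 (SE 0.34, adjusted p = 1.9e-05) but not with those sums (adjusted p = 6.49e-02), and its groups overlapped.

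The called decreases with the largest fold were those of Tmem171, Ust and Flt1. Flt1 (ENSMUSG00000029648, chr5:147561604-147726438), a receptor for vascular endothelial growth factor, was at a median of 57.0 CPM (35.4 to 111) in controls and a median of 18.0 CPM (2.98 to 34.3) in Dis3 cKO. Its groups did not overlap, and it fell by 1.82 (SE 0.33, adjusted p = 5.9e-06), or -1.86 (adjusted p = 3.71e-03) with sums over 4 numbers. Tmem171, a transmembrane protein, was at a median of 36.3 CPM (28.1 to 49.4) and a median of 10.1 CPM (1.39 to 17.5) and changed by -2.0 (adjusted p = 7.4e-07). Prrg1, a transmembrane protein with a gamma-carboxyglutamate domain, changed by -1.75 (SE 0.22, adjusted p = 1.3e-09), from a median of 96.6 CPM (70.8 to 125) to a median of 29.1 CPM (13.9 to 66.3). Ust, which sulfates uronic acid in chondroitin and dermatan sulfate, varied widely, at a median of 52.8 CPM (11.3 to 82.7) and a median of 4.32 CPM (0 to 68.3), and its change of -1.90 (SE 0.60, adjusted p = 0.00837) was lost with those sums (adjusted p = 0.104). Orc6 and Ezh2 changed by -0.56 (SE 0.15, adjusted p = 0.00276) and -0.57 (SE 0.10, adjusted p = 4.7e-06). Dctd, deoxycytidylate deaminase, held a median of 54.4 CPM (46.3 to 70.1) in controls and a median of 34.5 CPM (25.1 to 44.5) in Dis3 cKO (-0.81, SE 0.12, adjusted p = 7.0e-08), without overlap. With sums over 4 numbers Tmem171, Prrg1, Orc6, Ezh2 and Dctd kept adjusted p between 6.1e-05 and 0.0248. Ezh2 and Dctd were chosen after their values were seen.

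St3gal5, which makes the ganglioside GM3, was the member that fell from GV to MII without DIS3. In controls it was at a median of 30.3 CPM (24.4 to 54.2) at GV, a median of 93.0 CPM (60.5 to 136) at GV3h and a median of 123 CPM (83.5 to 144) at MII, so the rule chose it. In Dis3 cKO it was at a median of 54.8 CPM (43.3 to 84.6), a median of 53.3 CPM (40.5 to 76.4) and a median of 30.5 CPM (5.55 to 63.7), with the MII libraries spread from well below the GV range into it. The change from GV to MII was -0.56 (SE 0.18, adjusted p = 0.00626), lost with sums over 4 numbers (adjusted p = 0.182), where eggs 5 to 12 held 5.55 to 36.9 CPM. At GV3h it was -1.01 (SE 0.21, adjusted p = 9.3e-05) in Dis3 cKO relative to control.

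At MII and GV the difference between Dis3 cKO and control shares the control libraries with the rule and is given without a test. The median log2 difference of the members was -0.07 at MII, where that of all genes was 0.16, and 0.08 at GV (0.04 over all genes). Since the members are those in which the MII controls were high and the GV controls low, the choice itself pulls the first of these down and the second up.

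In adult GV total RNA 136 of the 187 members tested did not pass the test for Dis3 cKO against control. Higher were 26 and lower 25, shares of 13.9% and 13.4% that lay near those of all genes (15.7% and 12.4%, with 11.2% and 25.9% of the genes at the floor), with a median of -0.01 against 0.03. In ERCC units the split turned to 0 higher and 113 lower (4.56% and 40.1% of all genes, median of all genes -0.52). With counts summed per title tag, leaving 2 sums per group, 0 members and 0 of all 20190 genes passed the edgeR test, with 29 members at an unadjusted p under 0.05, so no adult call held at that level.

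Map4 stood out in adult total RNA, at a median of 717 CPM (656 to 744) in controls and a median of 291 CPM (249 to 331) in Dis3 cKO. No library of 1 group reached the other, and the change was -1.38 (SE 0.066, adjusted p = 1.8e-10), with -1.43 (adjusted p = 0.105) per title tag. At p20 Map4 held a median of 704 CPM (599 to 736) in controls and a median of 588 CPM (551 to 649) in Dis3 cKO, a difference of -0.23 (SE 0.09, adjusted p = 0.115), and in dcKO it fell to a median of 263 CPM (232 to 304), a log2 change of -1.53 (SE 0.092, adjusted p = 8.6e-15), which held per title tag (adjusted p = 2.6e-04). The adult and p20 Dis3 effects differed by -1.16 on the log2 scale (adjusted p = 2.5e-10). Stag1 rose in adults from a median of 62.2 CPM (48.8 to 73.8) to a median of 117 CPM (86.3 to 160.2), a log2 change of 0.87 (SE 0.11, adjusted p = 1.1e-05), but in ERCC units it differed by 0.35 (adjusted p = 0.198) and per title tag it did not pass (adjusted p = 0.119). Arl6, a small GTPase of cilia, and Smim11 rose by 0.78 and 0.76, and Flt1 and Prrg1 changed by -1.16 and -0.94. Dazl was at a median of 632 CPM (358 to 700.4) and a median of 859 CPM (635 to 1151), a change of 0.53 (SE 0.14, adjusted p = 0.00680) that was -0.02 in ERCC units.

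**Figure D4:**
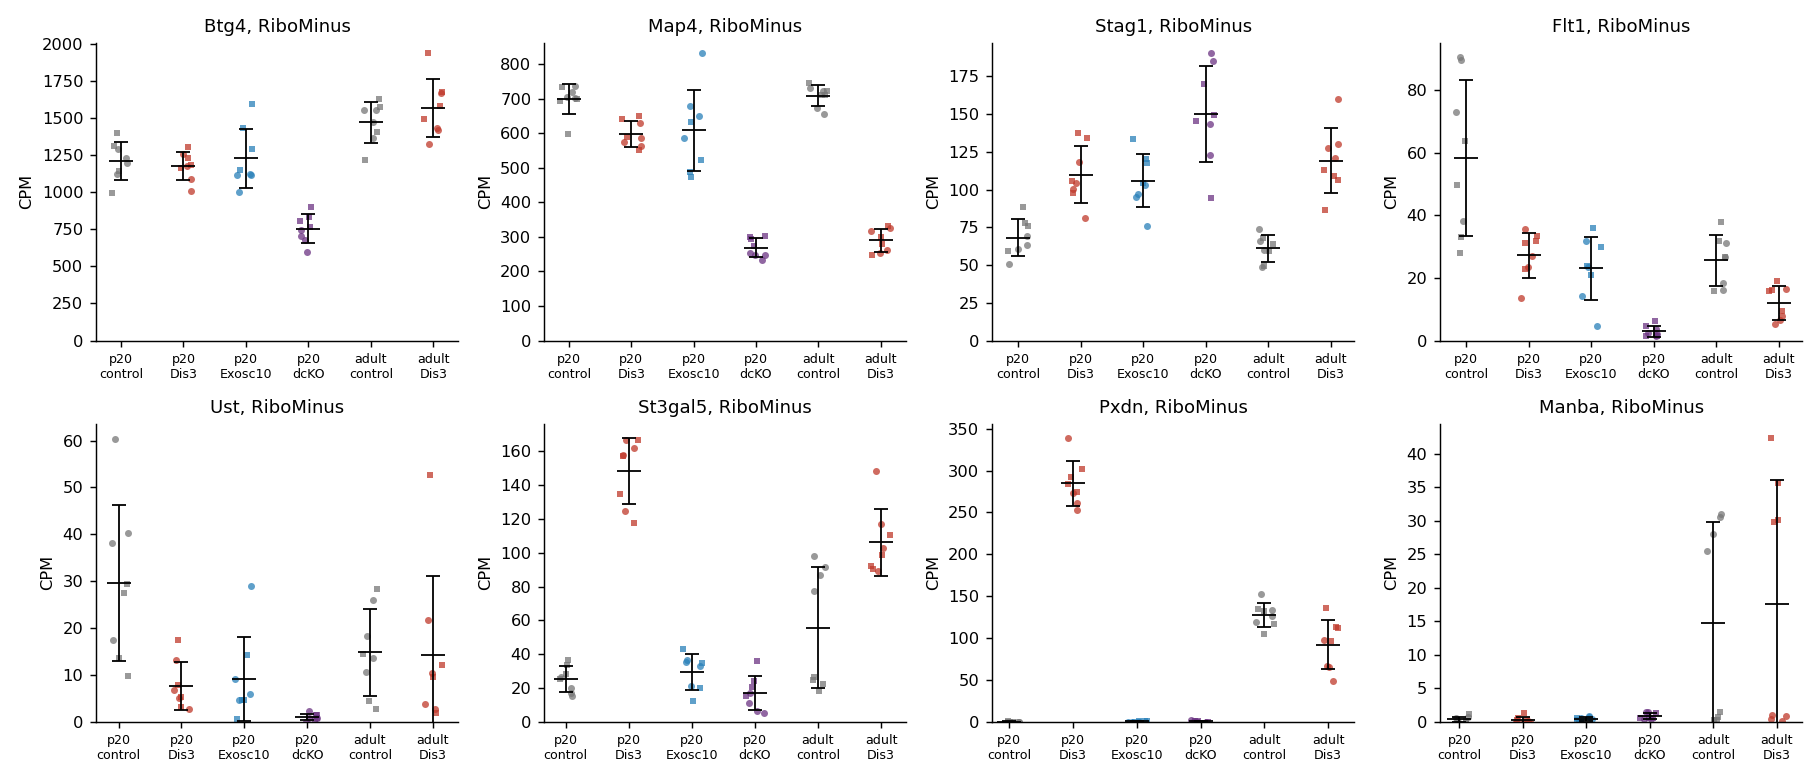
CPM of 8 members in total RNA of p20 and adult oocytes, with 1 marker shape for each of the 2 title tags of a group and bars for mean ± SD. Map4 is low in adult Dis3 cKO and p20 dcKO, Pxdn is at 253 to 339 CPM in p20 Dis3 cKO and near 0 in the other p20 groups, and Manba is split by tag in both adult groups.

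At p20, single deletions moved few members. In Dis3 cKO 8 were higher and 5 lower (3.61% and 3.76% of all genes), in ERCC units 2 and 7 (0.781% and 5.31%) and per title tag 3 and 1 (0.631% and 0.736%). In Exosc10 cKO 7 were higher and 6 lower (3.95% and 3.5%), in ERCC units 0 and 1 (1.35% and 0.944%) and per title tag 0 and 0 (0.536% and 0.296%), with 17 members at an unadjusted p under 0.05. In the double knockout 39 were higher and 68 lower of 187 (26.6% and 27.1% of all genes, 13.2% and 51.4% of those at the floor), in ERCC units 22 and 48 (17.8% and 20.4%) and per title tag 25 and 47 (16.1% and 15.7%), with a median of -0.17 against -0.01 over all genes. In dcKO 21 members lay wholly above and 20 wholly below the controls (12.4% and 7.08% of all genes). The 3 comparisons share 1 set of controls.

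Pxdn gave the sharpest p20 pattern. It was at 0 to 0.508 CPM in p20 controls, a median of 279 CPM (253 to 339) in Dis3 cKO, 0 to 1.39 CPM in Exosc10 cKO and 0 to 2.0 CPM in dcKO. Of the p20 libraries, those labelled Dis3 cKO alone were high, in both title tags (adjusted p = 3.1e-18, and 7.80e-05 per tag), while adult controls and Dis3 cKO held 104 to 153 CPM and 48.3 to 136 CPM. In poly(A) RNA Pxdn was also uneven, at 0 CPM in MII Dis3 cKO eggs 5 to 11, 55.5 to 86.3 in eggs 1 to 4 and 152 to 200 in eggs 13, 14 and 16. Egg 12 held 112 CPM and egg 15 held 17.1 CPM, so levels also differed within runs. St3gal5 followed at p20, with a median of 25.7 CPM (15.1 to 36.8) in controls and a median of 158 CPM (118 to 167) in Dis3 cKO, a rise of 2.55 (SE 0.28, adjusted p = 2.1e-08) that held per tag (adjusted p = 1.37e-02), against a change of -0.72 (SE 0.27, adjusted p = 0.0262) in dcKO that did not (adjusted p = 0.164). Fam221a rose by 1.08 (SE 0.18, adjusted p = 7.2e-05) in Dis3 cKO, which per tag did not pass (adjusted p = 5.65e-02).

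Flt1 and Ust fell in each p20 deletion, with the lowest medians in the double knockout. Flt1 was at a median of 56.8 CPM (28.1 to 90.7) in controls, a median of 29.0 CPM (13.6 to 35.6) in Dis3 cKO, a median of 23.7 CPM (4.75 to 35.8) in Exosc10 cKO and a median of 2.32 CPM (1.51 to 6.33) in dcKO. The changes were -1.10, -1.37 and -4.44 (SE 0.36, adjusted p = 1.2e-11), of which the last held per tag (adjusted p = 2.00e-04) and the first and second did not (0.141 and 8.48e-02). Ust was at a median of 28.4 CPM (9.81 to 60.4) in controls and a median of 0.812 CPM (0 to 2.25) in dcKO (-4.98, SE 0.58, adjusted p = 1.4e-08, and 2.00e-04 per tag), and at a median of 6.07 CPM (2.67 to 17.4) in Dis3 cKO (-1.97, SE 0.49, adjusted p = 0.00802, and 3.81e-02 per tag). Sorcs2, a receptor of the sortilin family, fell by 2.85 (SE 0.32, adjusted p = 6.3e-09) in dcKO, with every dcKO library below every control (adjusted p = 0.00139 per tag). Ikzf4, a zinc finger transcription factor of the Ikaros family, changed by -0.88 (SE 0.27, adjusted p = 0.0419) in Dis3 cKO and by -1.51 (SE 0.28, adjusted p = 2.5e-05) in dcKO, but not per tag in Dis3 cKO (adjusted p = 0.386).

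The 3 largest called rises in the double knockout were those of Pogk, Pxdn and Tex19.1. That of Pxdn rests on 0 to 0.508 CPM in controls and 0 to 2.0 CPM in dcKO. Pogk, a transposase-derived gene, was at a median of 10.0 CPM (7.21 to 24.8) in controls and a median of 60.9 CPM (28.5 to 87.4) in dcKO (2.06, SE 0.28, adjusted p = 2.6e-07). Tex19.1 was at a median of 45.4 CPM (38.0 to 66.4) and a median of 138 CPM (102 to 190.1), a log2 change of 1.39 (SE 0.17, adjusted p = 1.8e-08). For Pogk and Tex19.1 the groups did not overlap, and both held per tag (adjusted p = 1.36e-03 and 1.09e-03). Btg4 fell in dcKO from a median of 1213 CPM (998 to 1401) to a median of 755 CPM (597 to 901), a change of -0.85 (SE 0.10, adjusted p = 2.3e-08) that held per tag (adjusted p = 0.00255), while Cnot8 rose by 0.36 (SE 0.095, adjusted p = 0.00182) but not per tag (adjusted p = 0.0996), so the deadenylase adaptor and the subunit had opposite signs. Of 40 genes in that list 10 rose and 15 fell in dcKO, and of 20 dormant messages 3 rose and 10 fell, with medians of -0.10 and -0.19. Over all genes 26.6% rose and 27.1% fell (median -0.01), and over the genes at the floor 13.2% and 51.4% (median -0.25). In Exosc10 cKO the largest called rises were those of Gtf2a2, a subunit of the general factor TFIIA (0.63, SE 0.16, adjusted p = 0.00922), Stag1 (0.59, SE 0.13, adjusted p = 0.00289) and Mfap3 (0.52, SE 0.10, adjusted p = 0.00104), and the largest falls those of Ust, Flt1 and Cdc5l (-1.22, SE 0.38, adjusted p = 0.0431). None of these held per tag.

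Poly(A) and total RNA effects come from separate libraries and can be set side by side. Of the 59 members lower at GV3h in Dis3 cKO poly(A) RNA, 17 were lower in adult total RNA (28.8% of 59 and 68.0% of the 25 lower there) and 42 in p20 dcKO (71.2% of 59 and 61.8% of 68). Over all 1282 genes at the floor that were lower at GV3h, the shares were 44.5% and 73.5%. In ERCC units 40 of 46 (87.0%) were lower in adults and 27 of 46 (58.7%) in dcKO. Of the genes at the floor that were lower at GV3h in ERCC units, 93.4% and 65.2% were. In those units 25 members (13.2%) were lower in all 3 comparisons, beside 482 of the 3438 genes at the floor. The members' share was thus not above that of the genes at the floor. Of the 15 higher at GV3h, 10 were higher in adult total RNA (66.7%, and 38.5% of 26) and 10 in p20 dcKO (66.7%, and 25.6% of 39), where of the 292 such genes at the floor 49.0% and 50.7% were. In p20 Dis3 cKO only 4 of the 59, Dctd, Flt1, Ikzf4 and Ust, were lower and only Stag1 of the 15 higher, or 6.78% and 6.67%, against 83 of the 1282 and 35 of the 292 genes at the floor. Without ERCC scaling, those lower in all 3 were Cdh4, Clasp2, Flt1, Hmgcll1, Ikzf4, Map4, Oas1d, Pde3b, Pde8a, Prrg1, Rnf141 and Slco3a1. Higher in all 3 were Dazl, Mob4, Plpp5, Stag1, Tada1 and Tmem107. The 12 and 6 are 6.35% and 3.17% of the members, where 12.2% and 2.07% of the genes at the floor were called in all 3. In ERCC units 0 members were higher in adults, so none of the 6 was called there, and Dazl and Stag1 changed by -0.02 and 0.35 in adults. Those 12 and 6 were named after their values were seen. They include Clasp2, which binds microtubule plus ends, Pde3b and Pde8a, phosphodiesterases of cyclic nucleotides, and Tada1, a subunit of the SAGA coactivator complex. Clasp2 changed by -0.31, -0.30 and -0.70 at GV3h, in adults and in dcKO, and Tada1 by 0.52, 0.74 and 0.73. None of the adult calls held per title tag. With sums over 4 title numbers, which left 7 members higher and 43 lower at GV3h, the call of Map4 there was lost.

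CUT&Tag peaks lay within 1000 bases of the start site for few members. For Pol II, 5 to 14 of the 151 members in the RefSeq promoter table had such a peak in an adult control library, where 4.4% to 7.95% of genes at the floor and 2.88% to 5.31% of all genes had one. Counts were 19 to 30 in p20 controls (13.4% to 16.9% and 8.98% to 10.8%) and 15 to 29 in adult Dis3 cKO (7.44% to 23.2% and 4.57% to 14.6%). In the Tcl1 cluster, Tcl1b4 had a Pol II peak in 0 of 3 adult control, 3 of 3 p20 control and 1 of 3 adult Dis3 cKO libraries, Tcl1b1 in 1, 2 and 3, Tcl1b2 in 0, 1 and 2, Tcl1b3 in 1, 1 and 1, Tcl1b5 in 2, 1 and 1, and Tcl1 in 1, 0 and 0. For H3K27me3, a mark of Polycomb repression, counts were 8 to 31 in adult controls (3.96% to 12.4% of genes at the floor and 18.4% to 31.5% of all genes), 12 to 17 in p20 controls (6.3% to 7.91% and 27.1% to 27.9%), 7 to 9 in adult Dis3 cKO (3.04% to 3.96% and 25.9% to 29.9%) and 12 to 19 in p20 dcKO (4.65% to 9.05% and 28.9% to 33.7%). Flt1 had an H3K27me3 peak in 3 of 3 adult and 3 of 3 p20 control libraries and in 0 of the libraries of adult Dis3 cKO and p20 dcKO, whereas Ust had one in 2, 3, 3 and 3. The ranges within a group are wide, the lists hold different numbers of peaks, and no test was made of these counts.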

How the data were processed

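Single mouse oocytes were sequenced as 71 poly(A) and 48 RiboMinus libraries, and pooled oocytes gave the CUT&Tag peak lists. The authors deposited raw read counts per gene and, in separate files, for 92 ERCC spike-in RNAs. Per the submitters' processing notes the tools were cutadapt 2.5, FastQC 0.11.8, STAR 2.7.2a, SAMtools 1.9, HTSeq 0.9.1, R 3.5.1 with DESeq2 1.24.0, and SEACR, on mm10, named with no role or order. The annotation release, the use of strand and the SEACR threshold are not given in the sources used here. The signal column of the deposited peak lists is the authors' own and was used only to rank peaks within a list. CUT&Tag libraries had been sampled to equal read numbers without removal of duplicates, per the design text of the series. ERCC RNAs were added to poly(A) lysates at a fixed dilution per the labels. The RiboMinus kit primes with random hexamers, so tail length bears on it less than on oligo-dT capture. The IgG group was not analysed here.

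CPM values were computed from gene counts alone. edgeR 4.0.16 in R 4.3.3 (TMM, filterByExpr, quasi-likelihood test, with all poly(A) groups, the RiboMinus groups of 1 age or, between ages, all RiboMinus groups in a fit, Benjamini-Hochberg adjustment over all genes tested, threshold 0.05) gave log2 fold changes, and every adjusted p comes from it. It was tested on simulated data, where 20.6% of genes changed 1.5-fold, 64.2% of those changed 2-fold and 77.3% of those changed 4-fold were called for Dis3 cKO MII against GV over 17389 genes. There 200 genes were changed, libraries were drawn independently, and 1.75% of the calls were false. In the data far more genes differed and some libraries lay together in runs, so these percentages need not hold for them. DESeq2 1.42.0 was an alternative. The ERCC scale used ERCC totals as library sizes. Reads carry no molecular identifiers, so their number limits counting error only. Each CPM value rests on the library totals given in the report.

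Members, gene lists and tests were chosen with earlier results of these data known. Genes were named by rule as the 10 highest-ranked members, those at the limit, the 3 largest and 3 smallest called changes of each tested comparison, members of the gene lists, the deleted genes, and the members highest and lowest in adult control total RNA, and others are said to be chosen after their values were seen. Differences that use MII or GV poly(A) controls carry no p because the rule used those libraries. Alternatives were scaling, tool, count filter, groups in the fit, replicate block, libraries left out, sums over title numbers or tags, and settings of the rule.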

Additional observations from a re-analysis of the deposited data

Results flagged for a closer look

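The library measures and the CPM of the 10 highest-ranked members and of the members in the gene lists gave 225 groups of 8 libraries. In 20 of these the highest or lowest library stood far from the rest, where chance gives about 1 group in 20. The poly(A) Dis3 cKO groups, with 15 or 16 libraries, were not checked in this way. In p20 Dis3 cKO 1 library had 547 gene counts per ERCC count, against 898 to 1201 in the others, and 14.6 member counts per ERCC count. In p20 Exosc10 cKO 1 library had 582 gene counts per ERCC count and 17.7 member counts per ERCC count. In that same library the members made up 3.04% of gene counts, Cks2 held 26.97 CPM and Oosp1 1352 CPM, the highest of the group.

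Control GV library 1 stood above the other 7 for Map4 (217 CPM), Fam221a (55.0 CPM), Homer2 (76.9 CPM) and Dazl (1225 CPM). Over all members, 26 had an outlying GV control library, and in 16 of them it was library 1 at the top. Cks1b was at 391.8 CPM in control MII egg 4. In p20 controls 1 library was the lowest for Map4 (599 CPM) and the highest for Omt2a (156 CPM), and other single libraries were the highest for Cdc5l (4.36 CPM) and Ggct (72.0 CPM). Further single libraries were those of Cdc5l in adult Dis3 cKO (17.2 CPM), Cyth1 and Omt2b in dcKO (8.06 and 171 CPM) and Homer2 in p20 Exosc10 cKO (73.2 CPM).

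The effect of the Dis3 deletion on total RNA differed between adult and p20 oocytes in 15 of 187 members by an interaction term in edgeR, against 9.32% of all genes. In 12 the adult effect was lower on the log2 scale. These were Pxdn (-11.45, a fitted value that rests on p20 controls near 0), St3gal5 (-1.74), Map4 (-1.16), Llgl1 (-1.08), Bcl2l11 (-0.87), Atp6v1b2 (-0.79), Crtc1 (-0.73), Pde8a (-0.67), Mtfr2 (-0.49), Pde3b (-0.49), Hic2 (-0.44) and Add1 (-0.43). In 3 it was higher, namely Dazl (0.54), Tada1 (0.68) and Arl6 (0.69). In ERCC units 7 members passed (3.38% of all genes), and with counts summed per title tag Pxdn and Map4 alone did (0.307% of all genes). Age and library set cannot be told apart.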

How the results depend on the processing

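Counts of called members depended mostly on the scaling and on the unit of replication, and the cause was not tested beyond what each setting's construction shows. DESeq2 left all 18 counts within 1.5 times and all 50 named folds on the same side. Settings that moved a count are given as members higher and lower.

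With ERCC totals the counts were 69 and 20 for Dis3 cKO MII against GV, 89 and 0 for GV3h against GV, 31 and 79 for MII against GV3h, 0 and 113 for adult Dis3 cKO, 2 higher for p20 Dis3 cKO, 0 and 1 for Exosc10 cKO, 22 higher for dcKO and 2 and 181 for adult against p20 controls. Without MII egg 15 the ERCC counts were 86 and 19 for MII against GV and 34 and 74 for MII against GV3h. With size factors of the single ERCC RNAs they were 6 lower for MII against GV, 91 and 0 for GV3h against GV, 72 and 20 for MII against GV3h, 8 higher for GV3h Dis3 cKO against control, 0 and 107 for adults, 2 and 3 for p20 Dis3 cKO, 0 and 1 for Exosc10 cKO, 24 and 39 for dcKO and 2 and 181 for adult against p20. Under these scalings Gm11381, higher in adults by TMM, turned to -0.40 and -0.39.

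With counts summed over 4 title numbers, 0 were lower for MII against GV, 6 and 10 were called for GV3h against GV, 0 lower for MII against GV3h and 7 higher for GV3h Dis3 cKO. Per title tag the counts were 0 and 0 for adults, 3 and 1 for p20 Dis3 cKO, 0 and 0 for Exosc10 cKO, 25 higher for dcKO and 4 and 2 for adult against p20. With no filter on low counts they were 33 lower for GV3h against GV, 0 lower for MII against GV3h, 15 higher for adults and 4 higher for Exosc10 cKO. With the groups compared alone in the fit they were 0 lower for MII against GV and for MII against GV3h and 10 lower for p20 Dis3 cKO, and title numbers 1 to 8 alone gave 0 lower for MII against GV3h. The zeros for MII against GV and for MII against GV3h concern St3gal5, the single member called lower there.

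Left out in turn, MII egg 15 and GV oocytes 8 and 16 of Dis3 cKO gave 184 higher and 1 lower each for MII against GV. For GV3h against GV, leaving out GV oocyte 8 or 16 gave 18 to 20 higher and 54 to 58 lower. Title numbers were not treated as pairs in the main fits. In 0 of 21 pairs of groups did every same-numbered pair correlate above 0.1 (range -0.43 to 0.58), and 50 of the 190 same-numbered pairs did. Libraries with different numbers were not compared, so whether title numbers pair the samples cannot be told from this. The replicate block gave 183 and 1, 18 and 50, 185 and 1 and 11 and 54 for the poly(A) comparisons and moved no count by over 1.5 times. Of the 387 named folds under all settings, 67 lost their call and 2 reversed. Other settings of the rule shared 122 (floor of 20 CPM) to 189 of the members, and leaving out 1 control library 171 to 181.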

Other observations

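A smaller set of members was at or above 20 CPM in some libraries of a group and at or below 3 CPM in others of the same group. This held for 11 of the 189 members (5.82%) in at least 1 of the 12 RNA groups, by a definition made after seeing the data. It held for 52 of the 3438 genes at the 50 CPM floor (1.51%), a set that includes the members. The rule favours messages that were low in most GV controls, and no comparison with genes of like level was made. Ust did so in 5 groups, Manba in 4, Tox3, a high mobility group box protein, in 3, and Flt1 and Pxdn in 2 each. AU022751, Cdc5l, Shisal1, Sorcs2, Tmem171 and Zdhhc7, a palmitoyltransferase, did so in 1 group each. Pxdn was at 0 CPM in control GV library 1 and at 42.9 to 66.4 CPM in the other 7 controls. In adult total RNA St3gal5 was at 77.5 to 98.3 CPM in control libraries of 1 title tag and at 18.1 to 26.2 CPM in those of the other. No test was made of these splits.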
